A study of Mus musculus with 22 samples.

Results

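This account concerns 29 mouse genes for cholesterol synthesis, its control, its transport and its export, measured by RNA sequencing of liver. The genes were listed by symbol, and each was found once among the 53392 genes of the deposited table. All 29 had enough counts to be tested, as did 15928 genes in all. The list holds 19 enzymes of sterol synthesis, 4 genes of its control (Srebf2, Scap, Insig1, Insig2), 3 genes of sterol transport, receptor turnover and esterification (Stard4, Mylip, Soat2) and 3 export pumps (Abcg5, Abcg8, Abca1).

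The libraries came from the livers of 22 female C57BL/6 mice, 1 library per mouse, in 4 groups: 5 germ-free pregnant, 6 germ-free non-pregnant, 5 conventional pregnant and 6 conventional non-pregnant mice. Germ-free mice live without microorganisms, whereas conventional mice carry an ordinary microbiota, and both kinds ate the same autoclaved chow. Pregnant mice were sampled at gestation day 15. Conventional females were mated overnight at 8 weeks of age, but germ-free females were mated at 11 to 15 weeks for 72 h and day 2 was taken as the start, so their gestational age is less certain. No unit is given for the ages in the labels, which were 91 to 121 in germ-free pregnant, 92 to 105 in germ-free non-pregnant and 70 to 77 in both conventional groups. Age and microbiota status therefore cannot be told apart, nor can gestational age and microbiota status among pregnant mice.

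Liver is a main site of cholesterol synthesis and the organ that passes sterol into bile. When the sterol content of the endoplasmic reticulum is low, Scap escorts the transcription factor SREBP2, encoded by Srebf2, to the Golgi, where it is cut and released to switch on the synthesis genes. Insig1 and Insig2 hold Scap back when sterol is plentiful. Excess sterol activates the receptor LXR, which raises the pumps Abcg5, Abcg8 and Abca1. Abcg5 and Abcg8 form 1 heterodimer that secretes sterol into bile, and their genes lie head to head.

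Both promoters below are shown because the results turn on these genes: that of Hmgcs1, the synthesis enzyme with the lowest change in germ-free non-pregnant mice, and that of Abcg5, the gene with the largest fall in pregnancy among the 29. Each runs from 250 bases before to 50 bases after the start of transcription (RefSeq, GRCm38.p6). Capitals mark the sterol regulatory element motif TCACNCCAC and the NF-Y motif CCAAT, which reads ATTGG where it lies on the other strand.
Hmgcs1, chr13:119690101-119690400, plus strand: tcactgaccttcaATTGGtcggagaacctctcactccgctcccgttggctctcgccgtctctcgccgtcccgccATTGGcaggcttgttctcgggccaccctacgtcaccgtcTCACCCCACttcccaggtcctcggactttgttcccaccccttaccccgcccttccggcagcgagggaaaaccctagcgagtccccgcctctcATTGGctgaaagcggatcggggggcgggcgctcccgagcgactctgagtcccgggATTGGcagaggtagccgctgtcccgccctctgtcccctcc
Abcg5, chr17:84682962-84683261, minus strand: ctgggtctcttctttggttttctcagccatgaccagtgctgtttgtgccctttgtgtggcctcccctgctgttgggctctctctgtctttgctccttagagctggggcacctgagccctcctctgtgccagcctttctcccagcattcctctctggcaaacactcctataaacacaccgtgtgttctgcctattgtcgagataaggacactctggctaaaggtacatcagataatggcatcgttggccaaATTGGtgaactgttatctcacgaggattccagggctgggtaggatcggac
In the Hmgcs1 window the TCACNCCAC match begins at position -137 from the start, and 4 CCAAT matches lie around it. The Abcg5 window has 1 CCAAT match and none of TCACNCCAC. Its start lies 110 bp from the nearer start of Abcg8 on the opposite strand, and the windows of the pair share 209 bp. Of the 29 genes, 24 had a promoter in the RefSeq table, with 31 windows. On either strand, TCACNCCAC stood in 1 of these 31 (3.23%) and in 1.24% of all 32851 windows. CCAAT stood in 21 of the 31 (67.7%) and in 37.4% of all windows. These matches are letters in a window, not shown binding sites.

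Library totals ran from 18064491 to 30036912 estimated counts, and mitochondrial genes took 5.90% to 32.0% of them, with medians of 14.9% in germ-free pregnant, 20.4% in germ-free non-pregnant, 7.60% in conventional pregnant and 15.7% in conventional non-pregnant libraries. In CPM, estimated counts scaled to a common library size with TMM factors, the 6 hepatocyte markers summed to 123241 to 186567 in germ-free pregnant, 51588 to 89268 in germ-free non-pregnant, 65376 to 236276 in conventional pregnant and 61883 to 86791 in conventional non-pregnant livers, so the liver label did not conflict with them. Single hepatocyte markers went both ways with pregnancy, 4 up and 2 down in each kind of mice. Their log2 changes ran from -1.69 to 1.13 in germ-free and from -1.46 to 1.25 in conventional mice. The summed level of 3 erythroid markers was 46.1 to 97.8 CPM in germ-free pregnant, 11.5 to 28.3 CPM in germ-free non-pregnant, 14.6 to 55.8 CPM in conventional pregnant and 8.38 to 16.4 CPM in conventional non-pregnant mice. The part of these marker sums and of the mitochondrial share in the results was not tested. In bulk tissue, fewer cells of a type and less RNA per cell cannot be told apart. Libraries that stand apart touch several results below. Germ-free non-pregnant replicate 2 had the lowest mean of the 19 enzymes. With conventional pregnant replicates 1 and 2, it also had little Dbp, a clock output gene whose liver level cycles over the day and which was chosen after its values were seen: 41.8 CPM there, 22.9 and 10.6 CPM in those replicates, and 118 to 239 CPM in the other 19 libraries. Conventional pregnant replicate 2 further had 2049 CPM of the acute phase gene Saa1 and 2156 CPM of Saa2, with at most 62.2 and 43.5 CPM elsewhere. Germ-free pregnant replicate 2 had a summed level of 4 bile duct cell markers of 99.9 CPM, with at most 14.8 CPM in the other groups.

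The export pumps Abcg5 and Abcg8 fell in pregnancy, in conventional and in germ-free mice. They were the only members called in both pregnancy comparisons. In conventional mice 0 of the 29 members rose and 2 fell, where 5.49% of all tested genes rose and 3.52% fell. In germ-free mice 2 rose (Scap and Tm7sf2) and 3 fell (Soat2, Abcg5 and Abcg8), where 7.15% rose and 3.6% fell. Calls rest on an adjusted p under 0.05 from edgeR's quasi-likelihood test, with Benjamini-Hochberg adjustment over all 15928 genes. Changes are log2 values with their standard error.

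Abcg5 (ENSMUSG00000040505.13, a protein-coding gene on the minus strand of chromosome 17 at 84658234 to 84683011, GRCm38) stood at 38.2, 24.2, 48.8, 44.8 and 32.1 CPM in the 5 conventional pregnant mice. In the 6 conventional non-pregnant mice its lowest, median and highest levels were 77.9, 96.8 and 103 CPM. No pregnant library reached any non-pregnant one, a separation found downward for 2.39% of all tested genes, and the means were 37.6 ± 9.85 CPM in pregnant (SD, n = 5) and 92.4 ± 10.4 CPM in non-pregnant mice (SD, n = 6). The log2 change was -1.30 ± 0.23 (edgeR adjusted p = 0.00071). In germ-free pregnant mice the levels were 90.8, 48.6, 44.1, 48.2 and 57.7 CPM, against 82.2, 107 and 214 CPM as lowest, median and highest in germ-free non-pregnant mice. Pregnant replicate 1 lay within the non-pregnant range and the other 4 lay below it. The log2 change was -1.05 ± 0.23 (edgeR adjusted p = 0.00359). The highest non-pregnant value came from the library of low Dbp, replicate 2, and without it the change was -0.80 (edgeR adjusted p = 0.00821).

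Abcg8 (ENSMUSG00000024254.15, plus strand of chromosome 17 at 84676302 to 84700333) encodes the partner of Abcg5. It stood at 53.0, 26.2, 72.7, 56.5 and 44.1 CPM in conventional pregnant mice, against 88.4, 95.9 and 109.8 CPM as lowest, median and highest in conventional non-pregnant mice. These groups did not overlap, and the log2 change was -0.94 ± 0.20 (edgeR adjusted p = 0.00428). In germ-free pregnant mice it stood at 77.6, 65.6, 66.1, 71.8 and 83.9 CPM, against 77.7, 105 and 181 CPM in germ-free non-pregnant mice. Replicate 5 of the pregnant mice was above the lowest non-pregnant one and the other 4 were below it. The log2 change was -0.63 ± 0.20 (edgeR adjusted p = 0.0463). That call was lost in 17 of 22 fits that left out 1 library each, with the change at -0.45 (edgeR adjusted p = 0.127) without germ-free non-pregnant replicate 2, and also with a replicate block (-0.67, edgeR adjusted p = 0.0661). Exons of the 2 genes overlap over 82 bp on opposite strands, and the counting is not stated to use strand.

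The fall of Abcg5 was not shown to differ between germ-free and conventional mice: the interaction, the pregnancy change in germ-free minus that in conventional mice, was 0.25 ± 0.32 (edgeR adjusted p = 0.940), and 0.31 ± 0.28 for Abcg8 (edgeR adjusted p = 0.910). Between the pregnant groups, Abcg5 averaged 57.9 ± 19.0 CPM in germ-free mice and 37.6 ± 9.85 CPM in conventional mice (SD, n = 5 each). That log2 change of 0.62 ± 0.24 and the 0.53 ± 0.21 of Abcg8 were not called (edgeR adjusted p = 0.361 and 0.376). Abca1, the pump that loads cholesterol onto high-density lipoprotein, did not share this pattern. It stood at 72.7, 91.8, 83.3, 82.2 and 95.3 CPM in germ-free pregnant mice, against 61.8, 66.6 and 73.3 CPM as lowest, median and highest in germ-free non-pregnant mice. In conventional pregnant mice it stood at 82.3, 96.3, 105, 93.3 and 75.2 CPM, against 48.6, 69.2 and 92.5 CPM in conventional non-pregnant mice. Both pairs of groups overlapped. Its changes of 0.35 ± 0.14 in germ-free and 0.40 ± 0.14 in conventional pregnancy were not called (edgeR adjusted p = 0.122 and 0.0791). Without conventional non-pregnant replicate 6 the conventional change was 0.50 and called (edgeR adjusted p = 0.0159).

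**Figure D1:**
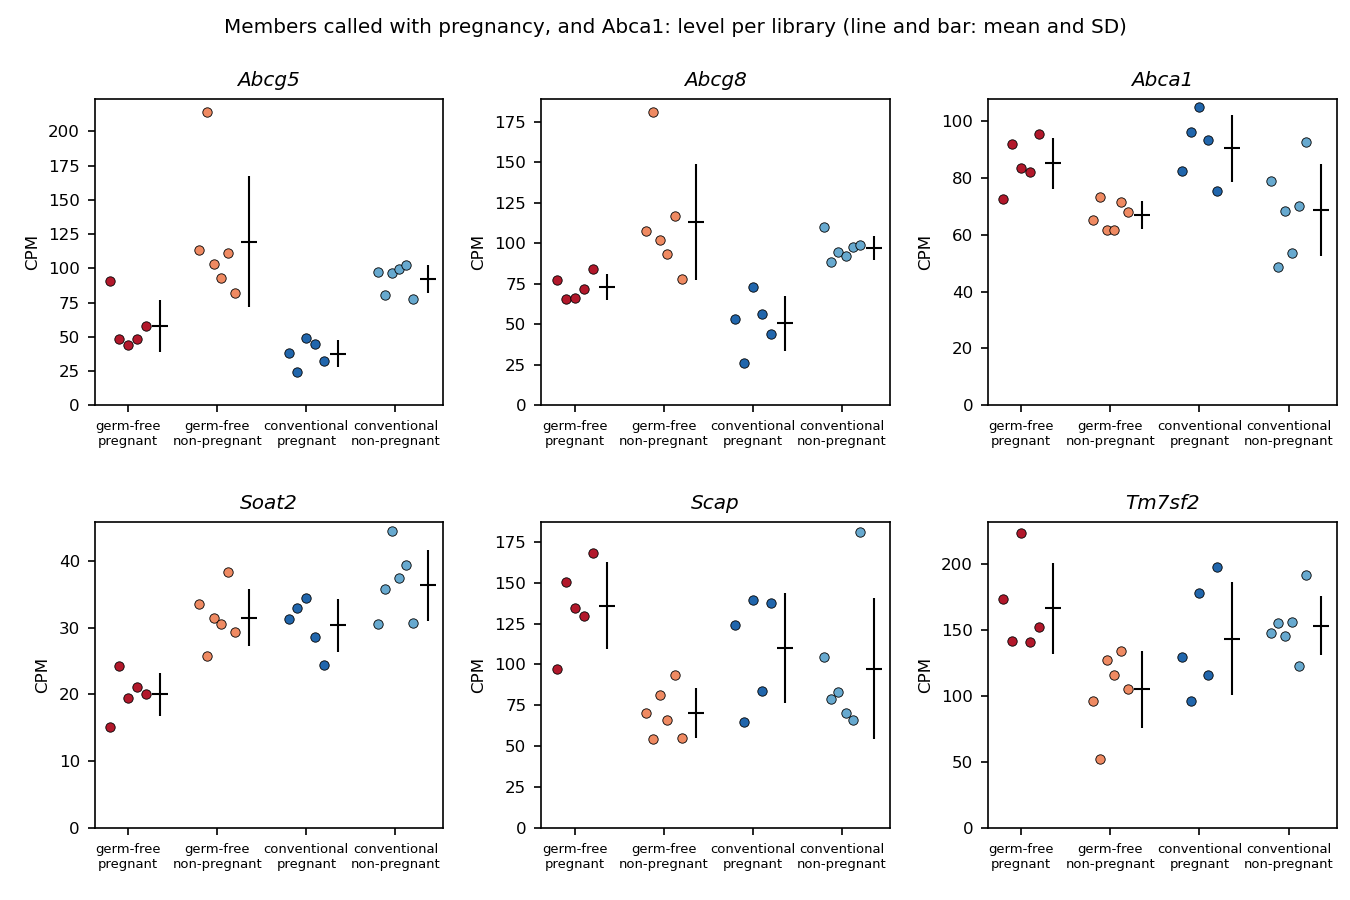
Level in CPM (y axis, from 0) of 6 member genes in each library, by group on the x axis. Points are libraries, and the line and bar to their right give the mean and SD (n = 5 or 6). Abcg5 and Abcg8 are lower in conventional pregnant than in every conventional non-pregnant library, and Soat2 and Scap separate the germ-free groups in opposite directions, the call of Scap being lost without TMM.

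Soat2, which makes cholesteryl esters in hepatocytes, fell in germ-free pregnancy. The gene (ENSMUSG00000023045.13) lies on the plus strand of chromosome 15 at 102150526 to 102163469. Its levels were 15.2, 24.2, 19.5, 21.1 and 20.0 CPM in germ-free pregnant mice, against 25.7, 31.0 and 38.4 CPM as lowest, median and highest in germ-free non-pregnant mice. The groups did not overlap, as was so for 2.81% of all genes in this direction, and the log2 change was -0.66 ± 0.13 (edgeR adjusted p = 0.00183). In conventional pregnant mice it stood at 31.3, 33.0, 34.4, 28.6 and 24.4 CPM, against 30.6, 36.6 and 44.4 CPM in conventional non-pregnant mice, and these groups overlapped. That change of -0.26 ± 0.13 was not called (edgeR adjusted p = 0.252).

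Each germ-free pregnant library was also below each conventional pregnant one for Soat2, as for 0.603% of all genes. That change of -0.60 ± 0.14 was not called by edgeR (adjusted p = 0.107), but DESeq2 called it (-0.59, adjusted p = 0.0125). The interaction was -0.39 ± 0.19, with an unadjusted edgeR p of 0.0462 and an adjusted p of 0.863. Stard4, which carries sterol between membranes, had group means of 102 ± 31.2 CPM in germ-free pregnant, 85.4 ± 26.5 CPM in germ-free non-pregnant, 94.7 ± 23.1 CPM in conventional pregnant and 104 ± 12.8 CPM in conventional non-pregnant mice. Mylip, a ubiquitin ligase that marks lipoprotein receptors for breakdown, had group means between 7.21 and 10.1 CPM. Neither was called in any comparison.

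Among the control genes, Scap rose in germ-free pregnancy and the other 3 were called in no comparison. Scap (ENSMUSG00000032485.14, plus strand of chromosome 9 at 110333288 to 110384950) stood at 97.4, 150.3, 134, 129 and 168 CPM in germ-free pregnant mice, against 54.6, 68.1 and 93.9 CPM as lowest, median and highest in germ-free non-pregnant mice. All 5 pregnant libraries were above all 6 non-pregnant ones, as for 5.66% of all genes, with a log2 change of 0.95 ± 0.24 (edgeR adjusted p = 0.0117). In conventional mice the groups overlapped, at 124, 64.6, 139.7, 83.9 and 137 CPM in pregnant mice against 65.8, 81.2 and 181 CPM in non-pregnant mice. The conventional change was 0.17 ± 0.24 (edgeR adjusted p = 0.748). The interaction for Scap was 0.78 ± 0.34, with an unadjusted edgeR p of 0.0337 and an adjusted p of 0.863. Scap shares 985 bp of exon with a gene on the opposite strand. Scaled by library totals alone, without TMM, the germ-free change of Scap was 0.63 and no longer called (edgeR adjusted p = 0.0984).

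That choice of scaling bears on all germ-free pregnancy values. It moved the median log2 change of all genes from -0.02 with TMM to -0.33, and the share of called genes that were higher from 66.5% to 18.1%. For germ-free against conventional pregnant mice the median moved from -0.03 to -0.28 and the share from 61.9% to 20%. In conventional pregnancy the share moved from 60.9% to 50.3%. The falls of Soat2, Abcg5 and Abcg8 in germ-free pregnancy were called under both scalings. Of all genes, 3.6% were called lower there with TMM and 13.3% without it. The call of Abcg8 was lost in other runs, as given above.

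Srebf2 averaged 47.0 ± 9.95 CPM in germ-free pregnant, 39.4 ± 10.8 CPM in germ-free non-pregnant, 47.4 ± 14.3 CPM in conventional pregnant and 55.8 ± 14.2 CPM in conventional non-pregnant mice. Its lowest level, 23.0 CPM, was again in germ-free non-pregnant replicate 2. The change in germ-free against conventional non-pregnant mice was -0.50 ± 0.20 (edgeR adjusted p = 0.623). Insig1, itself a target of SREBP2, had its lowest, median and highest levels at 137, 301 and 377 CPM in germ-free non-pregnant mice, against 399, 439.7 and 637 CPM in conventional non-pregnant mice. These groups did not overlap, but the change of -0.79 ± 0.24 was not called (edgeR adjusted p = 0.287). In germ-free pregnant mice Insig1 stood at 251, 155, 421, 211 and 282 CPM and in conventional pregnant mice at 402, 270.4, 289, 293 and 439 CPM. Insig2, whose liver form does not depend on SREBP2, averaged 55.2 ± 12.9 CPM in germ-free pregnant, 48.2 ± 18.7 CPM in germ-free non-pregnant, 67.5 ± 24.9 CPM in conventional pregnant and 49.3 ± 12.0 CPM in conventional non-pregnant mice. Its highest germ-free non-pregnant value was the 84.8 CPM of replicate 2, where Srebf2 and Insig1 were lowest, and its highest value of all was the 110.0 CPM of conventional pregnant replicate 1.

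Most of the 19 synthesis enzymes lay lower in germ-free than in conventional non-pregnant livers, although edgeR called none and no set test was run. Of the 29 members 0 were called in this comparison, where 0.0879% of all genes rose and 0.0691% fell, 25 genes in all. At an unadjusted edgeR p under 0.05, 17 of the 19 enzymes were lower, where 3.28% of all tested genes were. The log2 change was negative for 18 of the 19, with a median of -1.09 beside -0.01 over all genes. The lowest was that of Hmgcs1 at -1.47 ± 0.39, and the lowest adjusted p was that of Pmvk (-1.11 ± 0.25, edgeR adjusted p = 0.0779), followed by Fdft1 (-0.93 ± 0.21, edgeR adjusted p = 0.0894).  In each of 22 fits that left out 1 library, 17 enzymes were again lower at that threshold, as were 2.61% to 3.87% of all genes. The members were chosen with earlier results of these data known, and these enzymes share 1 regulator and the same mice, so their number is not a number of independent observations.

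In the mevalonate steps, Acat2 and Hmgcs1 build the carbon skeleton, and Mvk, Pmvk and Mvd turn mevalonate into isopentenyl pyrophosphate. Idi1 converts that product to its isomer, and Fdps and Ggps1 make the longer prenyl chains. Hmgcs1 (chromosome 13 at 119690379 to 119708260) stood at lowest, median and highest levels of 67.9, 180.0 and 428 CPM in germ-free non-pregnant mice, against 383, 545 and 796 CPM in conventional non-pregnant mice. Germ-free replicate 5 was the only one of the 6 within the conventional range. Mvk, Pmvk, Idi1 and Fdps did not overlap between these groups, each being lower in germ-free mice. Fdft1, Sqle and Lss, which lead through squalene to lanosterol, all overlapped. Cyp51, which acts on lanosterol, did not overlap. Of the 7 others between lanosterol and cholesterol (Tm7sf2, Msmo1, Nsdhl, Hsd17b7, Ebp, Sc5d and Dhcr7), only Nsdhl did not overlap. These 7 changed by between -1.21 (Nsdhl) and -0.22 (Ebp) on the log2 scale. In all, 6 of the 19 enzymes had lower germ-free levels without overlap, as did 0.433% of all genes. Sqle, the oxygen-dependent step that makes squalene epoxide, stood at 3.02, 42.3 and 75.0 CPM as lowest, median and highest in germ-free non-pregnant mice, against 62.8, 95.0 and 127 CPM in conventional non-pregnant mice. Its change was -1.16 ± 0.46 (edgeR adjusted p = 0.604), with overlap in the upper germ-free libraries.

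Ggps1, whose product leaves the sterol pathway for protein prenylation, and Ebp, a sterol isomerase, were the exceptions. Ggps1 changed by 0.18 ± 0.15 and Ebp by -0.22 ± 0.16, neither at an unadjusted edgeR p under 0.05. DESeq2 called 6 of the enzymes lower: Acat2, Mvk, Pmvk, Fdft1, Nsdhl and Sc5d, with adjusted p from 0.00395 to 0.0451, where it called 0.392% of all genes lower. Without germ-free non-pregnant replicate 5, edgeR called Acat2, Pmvk, Fdft1 and Sc5d, with adjusted p from 0.0262 to 0.0400, and 0.0884% of all genes lower. Exons of Fdft1 overlap those of Ctsb over 774 bp on the opposite strand, and those of Fdps overlap another gene model over 1124 bp on the same strand, so their counts may hold reads of a neighbour. The counts of Acat2 may be shared with its paralog Acat3.

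**Figure D2:**
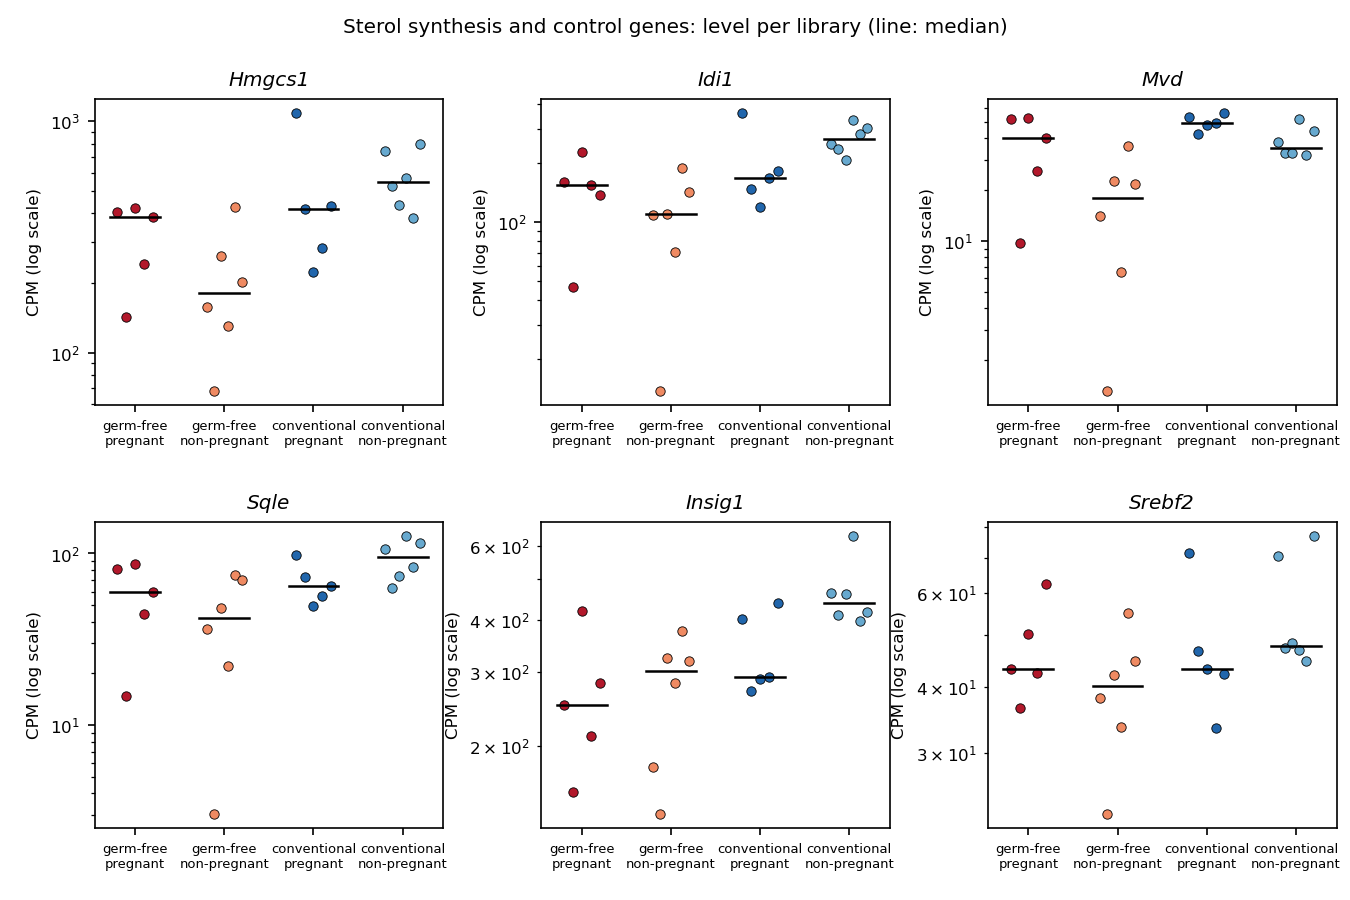
Level in CPM (y axis, log scale) of 6 genes of sterol synthesis and its control in each library, by group on the x axis, with a line at the group median. For Mvd and Sqle the germ-free non-pregnant replicate 2, at 1.30 and 3.02 CPM, lies far below the rest and widens the spread of its group. Over the other 5 libraries of that group the highest was 5.52 and 3.39 times the lowest. In conventional non-pregnant mice it was 1.61 and 2.02 times.

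Among germ-free non-pregnant livers the same libraries were high or low for most enzymes. There, replicate 5 was the highest of the group for 18 of 19 enzymes and replicate 2 the lowest for 17 of 19. Replicate 2 was also the lowest of all 22 libraries for 16 of 19, with 13.7 CPM of Idi1 and 1.30 CPM of Mvd. The highest germ-free non-pregnant level of Mvd was 27.7 times the lowest, that of Sqle 24.8 times, that of Msmo1 14.0 times and that of Idi1 13.8 times. These ratios rest on replicate 2: over the other 5 they were 5.52 for Mvd, 3.39 for Sqle, 3.20 for Msmo1 and 2.68 for Idi1. In germ-free pregnant mice they were 5.49, 5.86, 3.22 and 4.87 for the same genes, and in conventional non-pregnant mice 1.61, 2.02, 1.75 and 1.60. In the conventional groups no library was lowest for more than 7 of the 19 enzymes. The mean log2 CPM of the 19 enzymes ran from 5.11 to 6.40 in germ-free pregnant, 3.96 to 6.42 in germ-free non-pregnant, 6.04 to 6.79 in conventional pregnant and 6.47 to 6.91 in conventional non-pregnant libraries. Each conventional non-pregnant library was above each germ-free one on this mean.

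Replicate 2 of the germ-free non-pregnant mice was low in synthesis genes and high in Abcg5 (214 CPM), Abcg8 (181 CPM) and Insig2. Beside this it had the low Dbp level given above, and 27.0% of its counts were mitochondrial. Replicate 4 of that group had 32.0% and an enzyme mean of 5.32. Replicates 1, 3, 5 and 6 had 8.11% to 23.1% and enzyme means of 5.74 to 6.42. The part of these in the result was not tested, but without that library the median change of the 19 enzymes was -0.87, still negative for 18 of 19. In germ-free pregnant mice, replicate 2 was the lowest for 15 of 19 enzymes (mean log2 CPM 5.11). That library had the high bile duct marker sum of 99.9 CPM, and the part of that was not tested either. In conventional pregnant mice, replicate 1 was the highest for 15 of 19, with 1087 CPM of Hmgcs1 where the other 4 had 222 to 429 CPM.

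**Figure D3:**
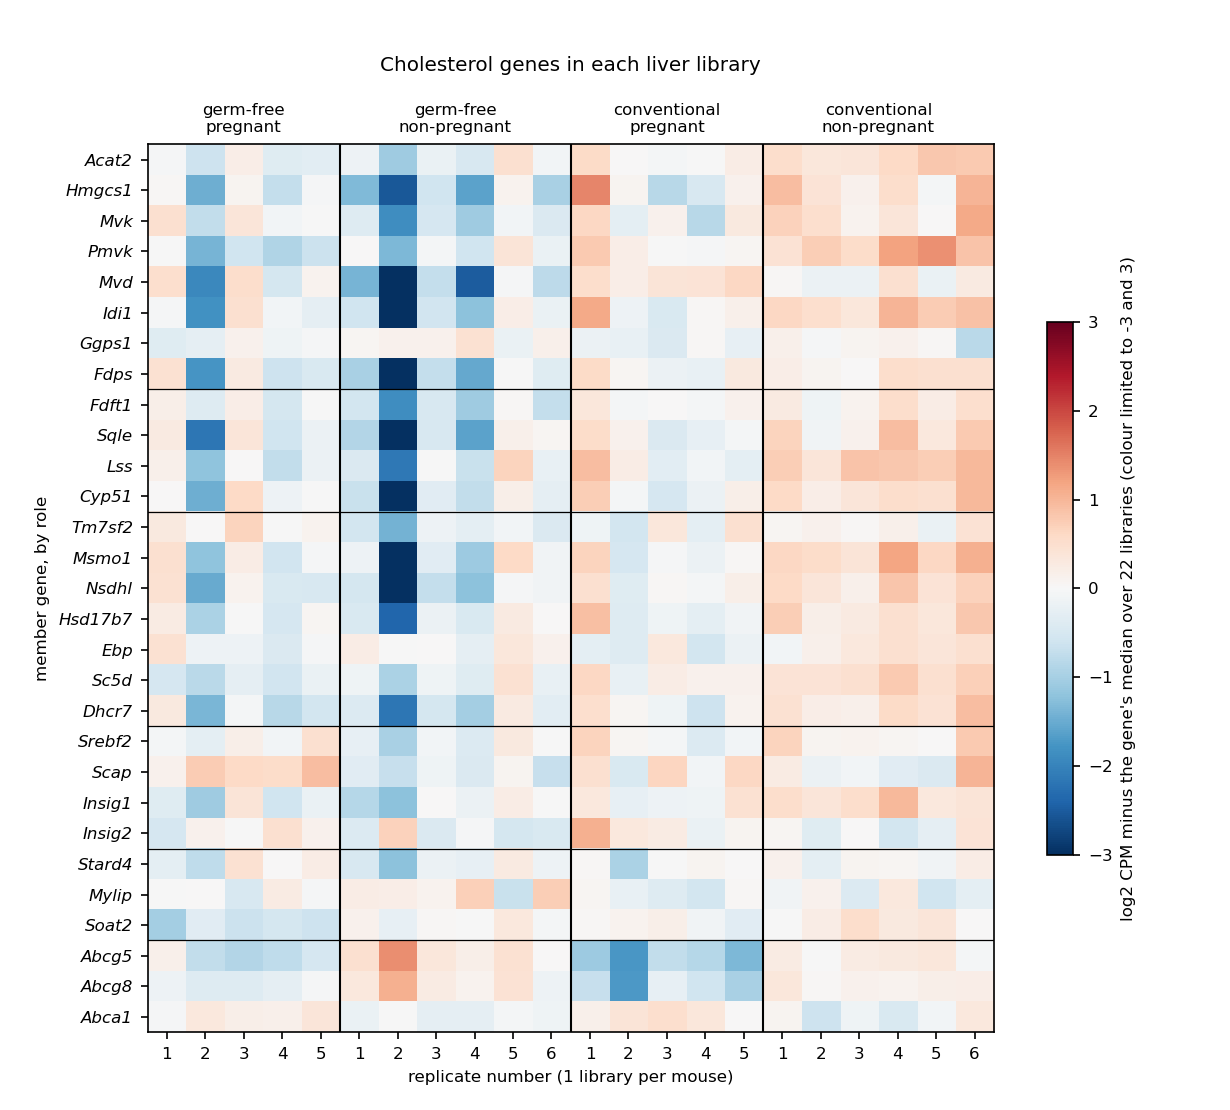
Log2 CPM of each member gene (rows, in order of role) minus its median over all libraries, in each of the 22 libraries (columns, by group and replicate). Red is above and blue below that median, and germ-free non-pregnant replicate 2 is the bluest column over the enzymes and red for Abcg5 and Abcg8.

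In conventional pregnancy 0 of 19 enzymes were called by edgeR. Their log2 changes were negative for 18 of 19 (Mvd at 0.37 ± 0.46 was the exception), with a median of -0.44 beside 0.04 over all genes, and 3 were lower at an unadjusted edgeR p under 0.05, as were 9.08% of all genes. That count was 2 without TMM, where 9.69% of all genes passed, and 4 with the size factors of DESeq2, where 10.1% passed. It was 5 without the filter on low counts (5.79% of all genes), by DESeq2 (10.8%) and with a replicate block (8.81%). With only the conventional libraries fitted it was 10, where 9.53% of all genes passed. Leaving out 1 library gave 2 to 8. The 8 came without conventional pregnant replicate 1, where 8.79% of all genes passed. Ebp had the lowest adjusted p (-0.49 ± 0.17, edgeR adjusted p = 0.0735), and DESeq2 called it (-0.51, adjusted p = 0.0271). Hmgcs1 averaged 488 ± 346 CPM in conventional pregnant and 575 ± 166 CPM in conventional non-pregnant mice. Sqle averaged 68.4 ± 18.8 CPM in conventional pregnant and 94.9 ± 25.3 CPM in conventional non-pregnant mice. With the 3 libraries of low Dbp left out, a choice made after seeing the data, Pmvk (-0.95, edgeR adjusted p = 0.0263) and Lss (-1.03, edgeR adjusted p = 0.0212) were called, 12 enzymes were lower at the unadjusted threshold, as were 9.42% of all genes, and the median was -0.63. Abcg5 and Abcg8 were called then too, at -1.19 and -0.79.

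In germ-free mice Tm7sf2, a sterol reductase that acts after lanosterol, rose with pregnancy. The gene (ENSMUSG00000024799.15, minus strand of chromosome 19 at 6062821 to 6068373) stood at 174, 142, 223, 141 and 152 CPM in germ-free pregnant mice, against 52.5, 110.4 and 134 CPM as lowest, median and highest in germ-free non-pregnant mice. The groups did not overlap, and the log2 change was 0.66 ± 0.21 (edgeR adjusted p = 0.0410). In conventional pregnant mice it stood at 129.6, 96.4, 178, 116 and 198 CPM, against 123, 151 and 192 CPM in conventional non-pregnant mice, with overlap and a change of -0.09 ± 0.21 (edgeR adjusted p = 0.852). The germ-free call was lost in 7 of 22 fits that left out 1 library, with 0.53 (edgeR adjusted p = 0.0698) without germ-free non-pregnant replicate 2, and scaled without TMM the change was 0.34 (edgeR adjusted p = 0.260). Tm7sf2 shares 532 bp of exon with Vps51 on the same strand.

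The other 18 enzymes were not called in germ-free pregnancy. Over the 19, the log2 change was positive for 13, with a median of 0.44 beside -0.02 over all genes, but for 10 with a median of 0.12 without TMM, and for 11 with a median of 0.19 without germ-free non-pregnant replicate 2. Hmgcs1 averaged 319 ± 122 CPM in germ-free pregnant and 208 ± 126 CPM in germ-free non-pregnant mice. Sqle averaged 57.4 ± 29.2 CPM in germ-free pregnant and 42.4 ± 27.7 CPM in germ-free non-pregnant mice. Mvd, which makes isopentenyl pyrophosphate, had the highest change at 1.09 ± 0.46 (edgeR adjusted p = 0.146).

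Between germ-free and conventional pregnant mice 0 of the 29 members were called, where 0.0816% of all genes rose and 0.0502% fell. Of the 19 enzymes 15 had negative log2 changes, with a median of -0.31 beside -0.03 over all genes. This median was -0.56 without TMM, -0.09 without conventional pregnant replicate 1, -0.12 without germ-free pregnant replicate 2 and -0.05 without the 3 libraries of low Dbp. At an unadjusted edgeR p under 0.05, Pmvk (-0.87 ± 0.27) and Sc5d (-0.65 ± 0.20) were lower, that is 2 of 19, as were 6.57% of all genes. Hmgcs1 stood at 405, 142, 421, 241 and 386 CPM in germ-free pregnant mice, against 1087, 418, 222, 283 and 429 CPM in conventional pregnant mice, with overlap. Sqle stood at 81.1, 14.8, 86.8, 44.4 and 59.7 CPM in germ-free pregnant mice, against 97.9, 73.4, 49.3, 56.8 and 64.5 CPM in conventional pregnant mice, also with overlap. This comparison shares libraries with both pregnancy comparisons.

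Whether pregnancy acted differently in germ-free and conventional mice was tested by the interaction. By edgeR 0 of the 29 members and 0 of all tested genes were called (0% of 15928), with 903 genes (5.67%) at an unadjusted p under 0.05. DESeq2 called 7 genes, none of them a member. The interaction was positive for 18 of the 19 enzymes, with a median of 0.76 beside -0.02 over all genes. Without TMM it was positive for 16, with a median of 0.45 beside -0.29. The interaction shares its libraries with the comparisons above, low germ-free non-pregnant ones included, so it is not a separate observation. At the unadjusted threshold it differed from 0 for 5 members: Mvk (1.14 ± 0.40), Fdft1 (0.77 ± 0.32), Tm7sf2 (0.76 ± 0.29), Scap (0.78 ± 0.34) and, with the opposite sign, Soat2 (-0.39 ± 0.19). Each of these had an edgeR adjusted p of 0.863.

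**Figure D4:**
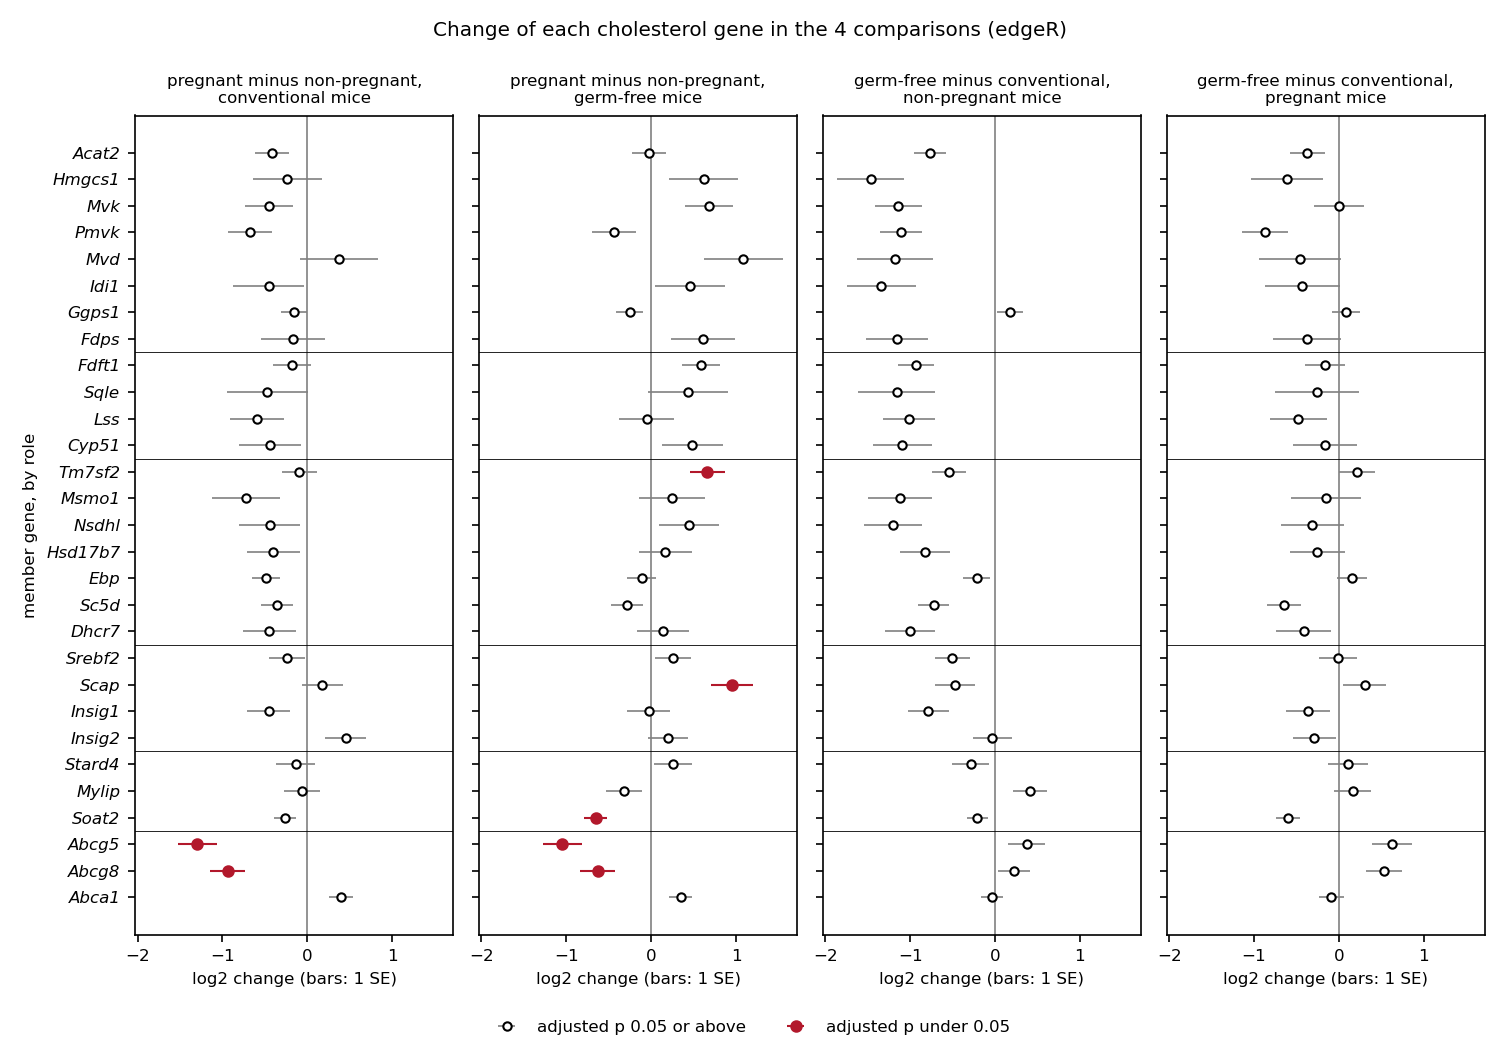
Log2 change of each member gene (y axis, by role) in the 4 comparisons, with bars of 1 standard error. Filled points passed an adjusted p under 0.05 in edgeR; the enzymes lie left of 0 in the germ-free against conventional non-pregnant panel with none filled, and Abcg5 and Abcg8 are filled in both pregnancy panels.

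Per kilobase of exon, levels differed widely among members. In conventional non-pregnant mice the mean level per length was highest for Insig1 at 150.4 CPM per kb, followed by Hmgcs1 at 125, Sc5d, the sterol desaturase, at 90.3 and Ebp at 77.6 CPM per kb. It was lowest for Ggps1 at 1.53 and Mylip at 2.35 CPM per kb. In germ-free non-pregnant mice Insig1 stood at 87.2, Ebp at 66.7, Sc5d at 54.7 and Hmgcs1 at 45.3 CPM per kb. Abcg5 stood at 13.9 CPM per kb in conventional pregnant and 34.1 CPM per kb in conventional non-pregnant mice, and Abcg8 at 13.5 CPM per kb in conventional pregnant and 25.8 CPM per kb in conventional non-pregnant mice.

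Neighbouring pathways gave the following counts. Among all tested genes 7.15% rose and 3.6% fell in germ-free pregnancy, with a median log2 change of -0.02. In conventional pregnancy 5.49% of all genes rose and 3.52% fell, with a median of 0.04. No list was tested as a set. Of 8 genes of the LXR axis, 1 rose and 1 fell in germ-free pregnancy, with a median log2 change of 0.04, and 0 rose and 1 fell in conventional pregnancy, with a median of -0.05. Srebf1, the LXR target that encodes SREBP1, was the gene that fell, to 108 ± 32.6 CPM in germ-free pregnant mice against 199 ± 53.6 CPM in germ-free non-pregnant mice (-0.88 ± 0.23, edgeR adjusted p = 0.0146). In conventional mice it fell to 141 ± 41.8 CPM in pregnant against 244 ± 44.7 CPM in non-pregnant mice (-0.80 ± 0.23, edgeR adjusted p = 0.0310), a call lost without the 3 libraries of low Dbp. Nr1h3, which encodes the liver LXR, rose in germ-free pregnancy, with 127 ± 22.8 CPM in pregnant and 88.7 ± 7.38 CPM in non-pregnant mice (0.52 ± 0.13, edgeR adjusted p = 0.00981), a call lost without TMM and without the filter on low counts. Its conventional change of 0.30 ± 0.13 was not called (edgeR adjusted p = 0.170).

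Of 9 tested genes that turn cholesterol into bile acids, 1 rose and 2 fell in germ-free pregnancy (median -0.27) and 0 rose and 2 fell in conventional pregnancy (median -0.47). Cyp7a1, which catalyses the controlling first step towards bile acids, changed by 0.42 ± 0.45 in germ-free and 0.33 ± 0.45 in conventional pregnancy (edgeR adjusted p = 0.624 and 0.745). Cyp39a1, an oxysterol hydroxylase, fell by 1.57 ± 0.32 in germ-free and by 1.40 ± 0.31 in conventional pregnancy (edgeR adjusted p = 0.0016 and 0.00543). Cyp7b1, another oxysterol hydroxylase, rose by 1.04 ± 0.24 in germ-free pregnancy (edgeR adjusted p = 0.00541), and Cyp27a1, the sterol 27-hydroxylase, fell by 0.68 ± 0.21 in conventional pregnancy (edgeR adjusted p = 0.0454).

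Of 14 genes of lipoprotein uptake and assembly, 5 rose and 1 fell in germ-free pregnancy (median 0.24), where 7.15% of all genes rose and 3.6% fell. Without TMM, however, 1 of the 14 rose and 3 fell, where 13.3% of all genes fell. In conventional pregnancy 1 rose and 0 fell (median 0.09). Lcat, the plasma enzyme that esterifies cholesterol on lipoproteins, rose by 0.90 ± 0.17 and Lrp1, a lipoprotein receptor, by 0.76 ± 0.18 in germ-free pregnancy (edgeR adjusted p = 0.00115 and 0.00826). Mttp, which loads lipid onto apolipoprotein B, rose by 0.55 ± 0.17 in conventional pregnancy (edgeR adjusted p = 0.0431), a call lost without TMM and with the size factors of DESeq2. Scarb1, the receptor for high-density lipoprotein, was called in no comparison, with 0.54 ± 0.15 in germ-free against conventional pregnant mice (edgeR adjusted p = 0.207).

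Of 8 tested genes of SREBP processing and sterol-regulated degradation, 3 rose and 0 fell in germ-free pregnancy (median 0.22), and none of the 3 was called without TMM. In conventional pregnancy 1 rose and 0 fell (median 0.20). Mbtps1, the protease that makes the first cut in SREBPs, rose by 0.56 ± 0.12 in germ-free pregnancy (edgeR adjusted p = 0.00308). Erlin1, an endoplasmic reticulum protein of sterol-regulated degradation, rose by 0.78 ± 0.15 in conventional pregnancy (edgeR adjusted p = 0.00162). In germ-free against conventional mice, non-pregnant or pregnant, 0 genes of these 4 lists were called by edgeR. DESeq2 called 1 gene of the LXR axis and 1 of bile acid synthesis lower in non-pregnant mice, and 1 of the lipoprotein list higher in pregnant mice.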

How the data were processed

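RNA was measured in 22 mouse livers. Reads were quantified with Salmon 0.11.3 against GRCm38.p6 and edgeR 3.24.3 was also named, per the submitters' processing notes. The annotation release and the use of strand in counting are not given in the sources used here. The deposited table holds estimated counts, made by the authors with Salmon and not normalized, for 53392 genes. The identifiers matched the reference annotation for 99.9% of genes, disregarding version numbers.

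The estimated counts were rounded to whole numbers, which changed them by 0.00829% in all. Genes were kept by filterByExpr of edgeR 4.0.16 (R 4.3.3; minimum count 10, minimum total 15), which left 15928. Libraries were scaled with TMM, and 1 quasi-likelihood model with a mean per group was fitted to all 22 libraries. The comparisons were pregnant against non-pregnant within germ-free and within conventional mice, germ-free against conventional within pregnant and within non-pregnant mice, and the interaction. P-values were Benjamini-Hochberg adjusted over all genes, and the steps were tested on simulated data. CPM uses TMM library sizes, and log2 CPM a prior count of 2. Lengths are merged exons of the reference annotation.

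Members and gene lists were chosen with earlier results of these data known. All members are named; values in every group were given for members called in any comparison and for Srebf2, Insig1, Insig2, Hmgcs1, Sqle, Abcg5, Abcg8 and Abca1. From each further list at most 2 called genes per comparison were named by adjusted p, with Srebf1, Cyp7a1, Nr1h3 and Scarb1. A called gene that this rule would name is not reported here. No 2 libraries of a group agreed within sampling noise. The labels and data did not show that replicate numbers pair the mice. Alternatives were the size factors of DESeq2 (1.42.0) in edgeR, library totals without TMM, no filter, the DESeq2 Wald test, only the groups compared, a replicate block, leaving out each library, and, added after seeing the data, leaving out the 3 libraries with under 50 CPM of Dbp.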

Additional observations from a re-analysis of the deposited data

Results flagged for a closer look

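Of 116 groups of values (29 members in 4 groups of mice), 10 (8.62%) held a library that lay far from the others of its group by Dixon's criterion, where chance gives about 1 in 20. Of the 10, 4 were enzymes in conventional pregnant replicate 1, the library with 22.9 CPM of Dbp. That library had 1087 CPM of Hmgcs1 where the other 4 had 222 to 429 CPM, and 46.7 CPM of Pmvk where the others had 26.4 to 31.5 CPM. It had 362 CPM of Idi1 where the others had 119.9 to 183 CPM, and 69.4 CPM of Hsd17b7, a sterol ketoreductase, where the others had 28.6 to 34.7 CPM. The median enzyme change of germ-free against conventional pregnant mice rests in part on it, as given above.

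In conventional pregnant replicate 2, which had 2049 CPM of Saa1 and 2156 CPM of Saa2, Stard4 stood at 53.6 CPM where the others had 102 to 109 CPM. In germ-free non-pregnant replicate 2, Abcg5 stood at 214 CPM where the others had 82.2 to 113 CPM, and Insig2 at 84.8 CPM where the others had 36.4 to 51.3 CPM. In conventional non-pregnant replicate 6, Scap stood at 181 CPM where the others had 65.8 to 105 CPM, and Ggps1 at 4.23 CPM where the others had 7.25 to 8.23 CPM. In conventional non-pregnant replicate 4, Insig1 stood at 637 CPM where the others had 399 to 464 CPM.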

How the results depend on the processing

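No member that was called turned its direction under any alternative run. In conventional pregnancy all genes called numbered 890 with only the groups compared (1436 as reported). Without the 3 libraries of low Dbp 4 members fell there, as did 3.04% of all genes. In germ-free pregnancy 0 members rose without TMM, 1 without the filter, 1 without the low-Dbp libraries and 4 with the replicate block (2 as reported). All genes that rose numbered 470, 887, 1139 and 1120 in that order (1139 as reported). Without TMM 2596 genes were called in either direction (1713 as reported). In germ-free against conventional non-pregnant mice 1 member fell without the filter, 6 by DESeq2 and 3 with the block (0 as reported). Of all genes 0.0513%, 0.392% and 0.119% fell in these runs, in that order. All genes called there were 117 by DESeq2 and 52 without the low-Dbp libraries (25 as reported). In pregnant mice DESeq2 called 1 member lower, and 0.278% of all genes. All genes called in that comparison were 35 without the filter, 108 by DESeq2 and 5 with only the groups compared (21 as reported). The interaction gave 2 genes without the filter, 7 by DESeq2, 1 with the block and 3 without the low-Dbp libraries (0 as reported). The causes were not tested.

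Leaving out 1 library gave 0 to 1 members higher in conventional and 1 to 4 in germ-free pregnancy, 0 to 4 members lower in germ-free against conventional non-pregnant mice, and 10 to 44 genes there, 5 to 28 in pregnant mice and 0 to 2 for the interaction. Of 21 pairs of libraries with the same replicate number, 5 had deviations correlated over 0.1 (-0.26 to 0.31), and in no comparison did every pair exceed 0.1, so a pairing was not shown. The block called Mvk, Pmvk and Fdft1 in germ-free against conventional non-pregnant mice and lost the germ-free pregnancy call of Abcg8 (-0.67, edgeR adjusted p = 0.0661). Depth limits the lowest values most, such as the 1.30 CPM of Mvd in germ-free non-pregnant replicate 2.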

Other observations

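Lists next to the cholesterol genes were counted in the same way, with no set test. Among all tested genes 7.15% rose and 3.6% fell in germ-free pregnancy (median log2 change -0.02). In conventional pregnancy 5.49% of all genes rose and 3.52% fell (median 0.04). Of 12 genes of fatty acid synthesis under SREBP1, 1 rose and 4 fell in germ-free pregnancy (median log2 change -0.50), and 3 rose and 3 fell in conventional pregnancy (median -0.28). Scd1, the desaturase that makes monounsaturated fatty acids, fell in both. It ranged from 73.0 to 171 CPM in germ-free pregnant against 1029 to 2341 CPM in germ-free non-pregnant mice (-3.62 ± 0.29, edgeR adjusted p = 1.37e-08). In conventional mice it ranged from 436 to 844 CPM in pregnant against 1034 to 2513 CPM in non-pregnant mice (-1.55 ± 0.26, edgeR adjusted p = 0.000424). It was also lower in germ-free than in conventional pregnant mice (-2.23 ± 0.28, edgeR adjusted p = 0.000324), and the interaction of -2.06 ± 0.36 was not called by edgeR (adjusted p = 0.0717), whereas DESeq2 called 1 gene of this list lower there. Fads1, a desaturase of polyunsaturated fatty acids, rose by 1.16 ± 0.21 in germ-free and by 1.25 ± 0.21 in conventional pregnancy (edgeR adjusted p = 0.000635 and 0.00043), without overlap in both.

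Of 9 genes of the non-sterol isoprenoid branch, which makes dolichol, ubiquinone and prenylated proteins from the same precursors, 3 rose in germ-free pregnancy (median 0.37), and none of the 3 was called without TMM. In conventional pregnancy 0 of the 9 were called by edgeR, with 3 at an unadjusted p under 0.05 (median 0.19). Dhdds, for dolichol, rose by 0.48 ± 0.13 and Coq2, for ubiquinone, by 0.37 ± 0.12 in germ-free pregnancy (edgeR adjusted p = 0.018 and 0.0401). Of 14 clock genes, Ciart fell by 2.08 ± 0.67 in germ-free pregnancy (edgeR adjusted p = 0.0487) and Arntl rose by 2.66 ± 0.77 in conventional pregnancy (edgeR adjusted p = 0.0315). Arntl stood at 6.92 and 6.65 CPM in conventional pregnant replicates 1 and 2, the libraries of low Dbp, and at 1.39, 0.383 and 0.470 CPM in the other 3, against 0.0889 to 1.38 CPM in conventional non-pregnant mice. Neither call held in every fit that left out 1 library. These were the only clock genes called in any of the 5 tests by edgeR. The time of day of sampling is not given in the sources used here.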
